A study of Mus musculus with 7 samples.

Results

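The 9 core myelin genes described here are Mbp, Mobp, Mal, Mag, Mog, Cnp, Cldn11, Ugt8a and Aspa, taken by their symbols from the 27998 genes measured in every mouse. All 9 were present in the tables. Their levels were measured by single-nucleus RNA sequencing of the striatum of 7 male C57BL6/J mice, 1 droplet library per mouse. Of these mice, 3 were wild type (WT), aged 14 months. The other 4 (HttQ175/+) had 1 normal huntingtin allele and 1 copy of HttQ175, in which a long CAG stretch has been knocked in to model Huntington's disease. HttQ175/+ replicates 2, 3 and 4 were 14 months old and HttQ175/+ replicate 1 was 15 months old. The allele is carried in all cells, so a change in one cell type cannot be assigned to the allele in that type alone. Replicate numbers name the mice and do not pair them across genotypes.

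Oligodendrocytes wrap axons in layers of their own membrane, and the compacted stack is the myelin sheath. Mbp encodes myelin basic protein, which holds the inner faces of the membrane together, and Mobp a smaller basic protein of the same compact layers. Mal encodes a proteolipid of myelin membrane rafts, and Cldn11 the claudin of the tight junctions that run through the sheath. Mag and Mog are surface proteins of the innermost and outermost layers. Cnp, an enzyme of the cytoplasm of the sheath, keeps its inner channels open. Ugt8a makes galactocerebroside, the main glycolipid of myelin, and Aspa splits N-acetylaspartate, which neurons supply, into aspartate and acetate that can feed lipid synthesis. Polydendrocytes, the progenitors of oligodendrocytes, turn most of these genes on as they mature.

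The promoters of 4 of the genes are shown because Mobp, Mal and Cldn11 were the members whose levels fell in HttQ175/+ oligodendrocyte nuclei, and Mag is the one with the smallest fitted change; Mag has 3 promoter entries, of which 1 is printed. The 250 bases before the start are given 5′ to 3′ on the strand of the gene, from RefSeq on GRCm38.p6. Capitals mark the letters ACAAAG or ACAATG, bound by SOX factors such as Sox10, or CTGGCAC, the core bound by Myrf, on either strand, so that CTTTGT is ACAAAG read from the other strand.
Mobp promoter, chr9:120149492-120149741, plus strand: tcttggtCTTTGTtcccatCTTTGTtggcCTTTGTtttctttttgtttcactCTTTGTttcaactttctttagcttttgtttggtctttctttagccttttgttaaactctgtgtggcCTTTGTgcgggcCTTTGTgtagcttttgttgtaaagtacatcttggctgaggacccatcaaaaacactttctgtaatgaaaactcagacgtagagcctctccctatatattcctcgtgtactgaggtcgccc
Mal promoter, chr2:127656696-127656945, minus strand: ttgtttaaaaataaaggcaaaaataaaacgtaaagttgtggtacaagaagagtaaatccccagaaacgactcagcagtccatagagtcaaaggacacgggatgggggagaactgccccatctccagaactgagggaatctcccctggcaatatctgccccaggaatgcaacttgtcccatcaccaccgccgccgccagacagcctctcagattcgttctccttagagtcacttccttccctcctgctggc
Cldn11 promoter, chr3:31149670-31149919, plus strand: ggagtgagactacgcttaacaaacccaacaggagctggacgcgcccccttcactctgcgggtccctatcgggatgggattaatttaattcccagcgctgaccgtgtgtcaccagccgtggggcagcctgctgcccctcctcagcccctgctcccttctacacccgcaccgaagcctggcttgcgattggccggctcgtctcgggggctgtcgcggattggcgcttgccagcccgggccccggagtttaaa
Mag promoter, chr7:30914864-30915113, minus strand: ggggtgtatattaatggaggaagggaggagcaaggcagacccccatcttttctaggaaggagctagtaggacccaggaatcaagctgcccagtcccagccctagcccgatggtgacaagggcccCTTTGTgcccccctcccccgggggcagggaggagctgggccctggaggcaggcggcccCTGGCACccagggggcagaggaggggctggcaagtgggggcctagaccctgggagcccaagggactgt

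RefSeq promoters, taken as 250 bases before to 50 after the start, matched 8 members other than Mbp. The Mobp promoter held 6 matches to CTTTGT, and the Mag promoter printed held 1 CTTTGT and 1 CTGGCAC. A SOX-type match was present in 3 of the 8 members (Cnp, Mag and Mobp) and in 28.6% of all 32851 promoters. The CTGGCAC letters were in 2 of 8 (Cnp and Mag) and in 5.01% of all, the E-box CAGCTG in 1 of 8 (Aspa) and 16.3% of all, and TATAAA in 1 of 8 (Aspa) and 13.6% of all. The Mal and Cldn11 promoters held none of these letters in the window. A match describes the letters only.

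On the mm10 build the genes lie apart from each other, and the GENCODE vM21 annotation lists each as protein coding. Mbp lies on chromosome 18 at 82475146 to 82585637, Mobp on chromosome 9 at 120149707 to 120181484, Mal on chromosome 2 at 127633226 to 127656695, and Mag on chromosome 7 at 30899176 to 30914873. Mog lies on chromosome 17 at 37010743 to 37023398, Cnp and Aspa on chromosome 11 at 100574904 to 100591729 and 73304992 to 73329596, and Cldn11 and Ugt8a on chromosome 3 at 31149920 to 31164324 and 125865271 to 125938619.

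The 7 libraries held 338 to 1239 nuclei and 872558 to 2256178 UMIs (unique molecular identifiers, 1 per captured RNA molecule), with library medians of 1657 to 2599 UMIs per nucleus. Levels are given as CPM, UMIs scaled to a total of 1000000 per nucleus, as the mean over the nuclei of a cell type in 1 mouse. Cell types are the authors' annotation, under which 468 nuclei are oligodendrocytes (32 to 109 per mouse) and 78 are polydendrocytes (8 to 17 per mouse). Only 3 barcodes occurred in more than 1 library. Oligodendrocyte nuclei made up 9.17% ± 0.70 of nuclei in WT (SD, n = 3) and 11.5% ± 3.29 in HttQ175/+ (SD, n = 4), with p = 0.457 by an exact two-sided permutation test whose smallest possible p is 0.0571. A median of 2097 ± 316 and 2137 ± 421 UMIs per oligodendrocyte nucleus was read in WT and HttQ175/+, with an exact permutation p of 0.857. HttQ175/+ replicate 3 stood apart from the other HttQ175/+ mice in the core myelin genes, and the main results are given with and without it. That choice was made on the levels of the members, so counts without replicate 3 are descriptive only.

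The nuclei annotated as oligodendrocytes were of 2 kinds by their neuronal RNA. The RNA of 10 genes that neurons express in general (Meg3, Snhg11, Syt1, Snap25, Grin2b, Grin2a, Rbfox3, Celf4, Dlgap1 and Kcnip4, a list chosen after seeing the data) made up fewer than 5 UMIs per 1000 in 136 of the 468 nuclei and 20 or more in most of the others. Only 33 nuclei lay between 5 and 20 per 1000. With a limit of 10 per 1000, also chosen after seeing the data, 148 nuclei were neuron-poor and 320, or 68.4%, were neuron-rich. Neuron-poor nuclei carried 0.29 to 1.92 neuronal UMIs per 1000 in the means of the 7 mice. Neuron-rich nuclei carried 28.9 to 33.3 in WT and 36.6 to 40.2 in HttQ175/+. The largest class, dSPNs, are the direct-pathway spiny projection neurons. Their means were 35.6 to 40.5 in WT and 50.7 to 54.3 in HttQ175/+, and 99.9% of dSPN nuclei lay above the limit. The summed RNA of the 10 genes was thus higher in HttQ175/+ in both, without overlap. Most of this sum was Meg3 and Snhg11, at 29452.5 and 13630 CPM in dSPNs, where each of the others had at most 1448. In neuron-rich nuclei these 2 were at 21766 and 10278.5 CPM, and each of the others at most 1012. The difference between genotypes was not split by gene. The part of this sum in the shares of neuron-rich nuclei was not tested. Other non-neuronal types also passed the limit in part: 44.9% of polydendrocyte, 37.0% of astrocyte, 33.9% of endothelial and 92.7% of microglial nuclei.

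Neuron-rich oligodendrocyte nuclei differed from neuron-poor ones in depth and in marker RNA. Their median depth was 2131 to 3317 UMIs by mouse, against 1281 to 1577 in neuron-poor nuclei. Of 11 markers of spiny projection neurons they held 5.35 to 6.66 UMIs per 1000 in WT and 2.91 to 3.76 in HttQ175/+. Neuron-poor nuclei held 0.14 to 0.84 over the 7 mice. The 7 oligodendrocyte markers that are not members include St18, Ermn and Hapln2. In neuron-rich nuclei these 7 gave 7.95 to 9.33 UMIs per 1000 in WT and 4.72 to 6.75 in HttQ175/+. In neuron-poor nuclei they gave 30.1 to 31.7 in WT and 14.3 to 20.5 in HttQ175/+. All 7 of the oligodendrocyte nuclei that Scrublet, a caller of doublets, marked were neuron-rich. Whether neuron-rich nuclei are droplets with 2 nuclei, nuclei with free RNA or something else was not tested.

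The share of neuron-rich nuclei differed between mice. In the WT mice, in replicate order, it was 57.1%, 56.2% and 46.3%. In the HttQ175/+ mice it was 76.7%, 83.3%, 38.6% and 81.7%. HttQ175/+ replicates 1, 2 and 4 lay above all WT mice and replicate 3 lay below them. In the summed level of the 9 members, all 4 HttQ175/+ mice lay below every WT mouse. How the 2 measures are linked was not tested. The means were 53.2% ± 6.02 (SD, n = 3) and 70.1% ± 21.2 (SD, n = 4), with an exact two-sided permutation p of 0.229. Without HttQ175/+ replicate 3 the HttQ175/+ mean was 80.6% ± 3.44, and the exact permutation p of 0.1 was the smallest that 3 against 3 mice allow. The plot of both kinds of RNA in each nucleus shows the separation and the unequal filling of its 2 sides.

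**Figure D1:**
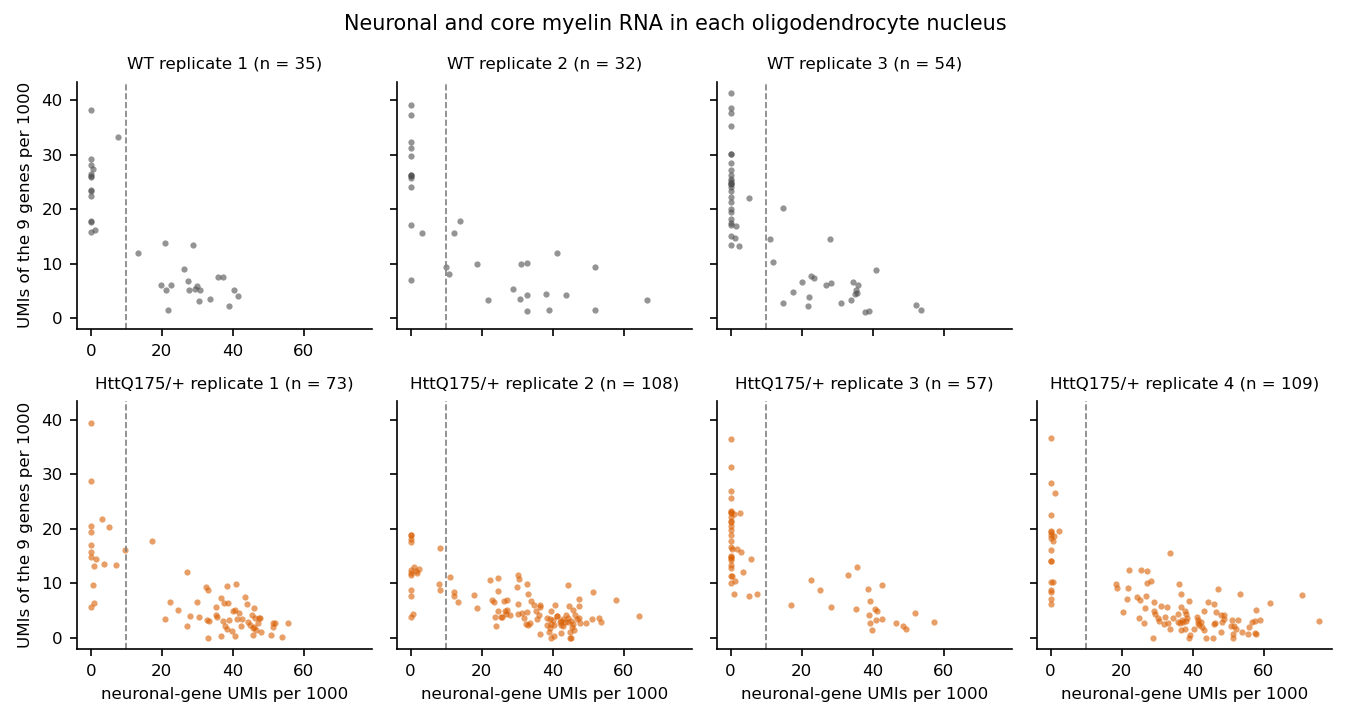
Each point is 1 oligodendrocyte nucleus, with UMIs of the 10 neuronal genes per 1000 UMIs on the x axis and UMIs of the 9 core myelin genes per 1000 on the y axis, in 1 panel per mouse (WT above in grey, HttQ175/+ below in orange); the dashed line marks 10 per 1000. Neuron-poor nuclei on the left carry more core myelin RNA on average than neuron-rich nuclei on the right in every mouse, and the right side holds 76.7%, 83.3% and 81.7% of nuclei in HttQ175/+ replicates 1, 2 and 4 against 38.6% to 57.1% in the other 4 mice.

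Over all oligodendrocyte nuclei, 3 of the 9 core myelin genes fell in HttQ175/+: Mobp, Mal and Cldn11, to levels 2.78 to 2.96 times lower. The other 6 also had fitted changes below 0 but did not pass the test at an adjusted p under 0.05. Across the 3650 genes tested in this type, 20 fell and 4 rose, so that 0.548% fell, and the median log2 change was 0.08, against -1.15 for the 9 members. These changes stand beside the shares of neuron-rich nuclei given above. The comparison was therefore repeated within each kind of nucleus.

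Mobp, of compact myelin, was at 1530.4, 1139 and 1787 CPM in the WT mice, in replicate order, and at 435, 285, 1026 and 448 CPM in the HttQ175/+ mice. Every HttQ175/+ mouse lay below every WT mouse, with replicate 3 closest to WT. The fitted change was -1.57 ± 0.34 (log2, SE) with an adjusted p of 0.0259, or 2.96-fold lower. Mal was at 1405, 2151 and 2379 CPM in WT and at 594, 589, 988 and 652 CPM in HttQ175/+. Again the groups did not overlap, and the change was -1.49 ± 0.28 with an adjusted p of 0.0129. Cldn11 was at 1147, 1075 and 1108 CPM in WT and at 398, 241, 711 and 355 CPM in HttQ175/+. Its WT mice were close together and all 4 HttQ175/+ mice were lower, with a change of -1.47 ± 0.31 and an adjusted p of 0.0227.

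The 2 genes of myelin metabolism had the same order of mice without passing the test. Ugt8a was at 452, 455 and 513 CPM in WT and at 189, 130.1, 395 and 174 CPM in HttQ175/+, with a change of -1.18 ± 0.33 and an adjusted p of 0.0976. Aspa was at 753, 481 and 671 CPM in WT and at 194, 269, 459 and 243 CPM in HttQ175/+, with a change of -1.15 ± 0.31 and an adjusted p of 0.0873. Both had all HttQ175/+ mice below all WT mice. In all, 5 of the 9 members had such an order, as had 4.74% of the genes tested.

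In the remaining 4 members HttQ175/+ replicate 3 lay within or above the range of WT. Mbp was at 5297, 5032 and 5014 CPM in WT and at 3088, 2699, 5242 and 2748 CPM in HttQ175/+, with a change of -0.65 ± 0.25 and an adjusted p of 0.239. Cnp was at 1276, 1945 and 1539.8 CPM in WT and at 643, 508, 1354 and 584 CPM in HttQ175/+, with a change of -1.14 ± 0.31 and an adjusted p of 0.0873. These 2 genes thus had 3 low HttQ175/+ mice and 1 at the level of WT. Mag, the adhesion protein of the innermost layer, was at 1723, 1464 and 1863 CPM in WT and at 1178, 814, 2142 and 1071 CPM in HttQ175/+, so that replicate 3 was the highest of all 7 mice. Its change was -0.47 ± 0.29 with an adjusted p of 0.511. Mog was at 684, 1024 and 921 CPM in WT and at 469, 360.2, 796 and 459.6 CPM in HttQ175/+, with a change of -0.79 ± 0.29 and an adjusted p of 0.221.

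**Figure D2:**
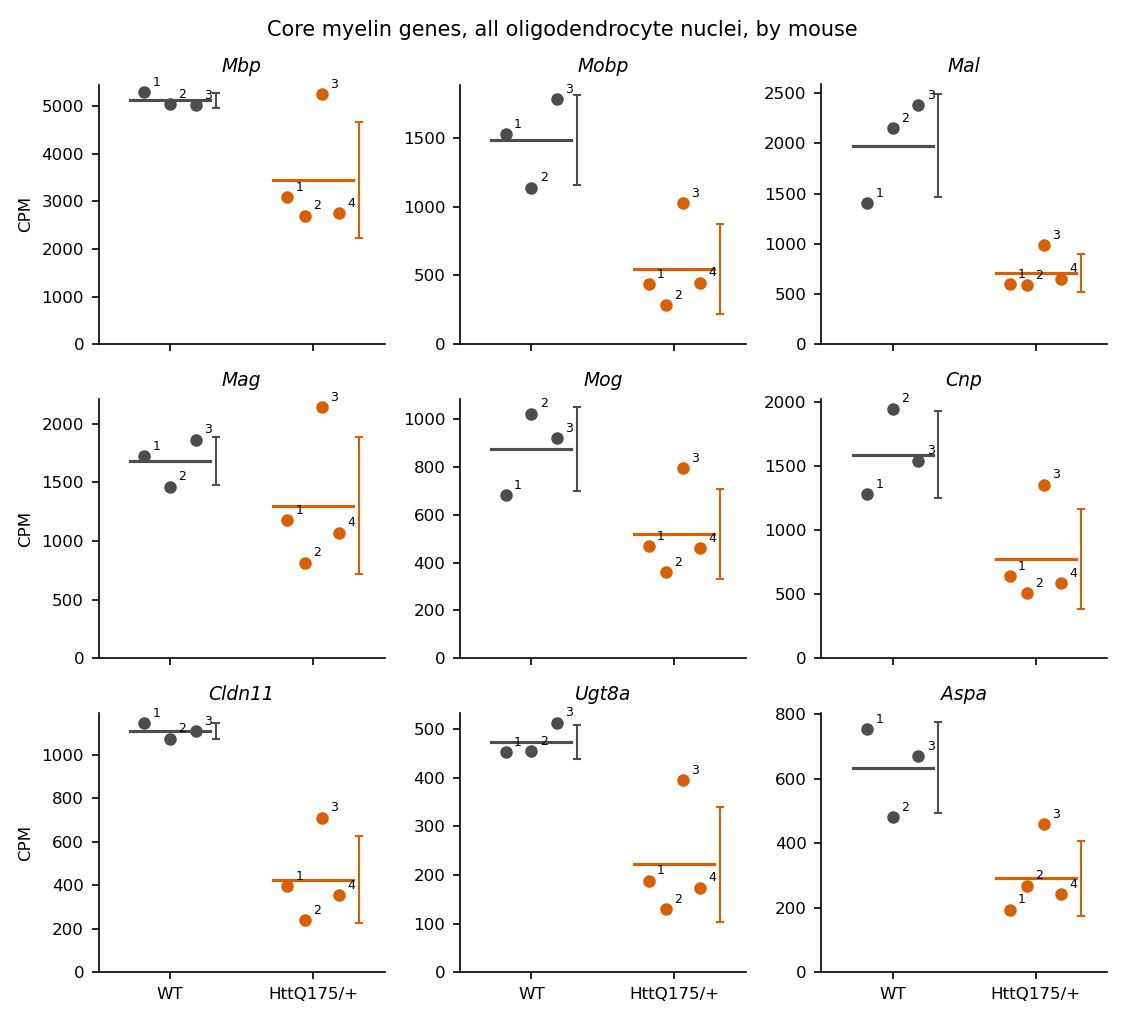
CPM of each core myelin gene over all oligodendrocyte nuclei, 1 point per mouse numbered by replicate, with the mean as a line and the SD as a bar beside it (WT in grey, n = 3; HttQ175/+ in orange, n = 4). HttQ175/+ replicate 3 is the highest HttQ175/+ mouse in 9 of 9 genes, and replicates 1, 2 and 4 lie below every WT mouse in 9 of 9. In the fit without replicate 3, 438 of 4591 genes tested had this order of mice. Replicate 3 was set aside for its levels of these same 9 genes, so the count is descriptive only.

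HttQ175/+ replicate 3 was the highest HttQ175/+ mouse for all 9 members, and replicate 2 the lowest of the 7 mice for 8 of them (replicate 1 for Aspa). The summed level of the 9 members was 14268, 14766 and 15795 CPM in WT and 7188, 5894, 13112 and 6735 CPM in HttQ175/+. Without HttQ175/+ replicate 3, 8 of the 9 members fell, all but Mag, where 1.98% of 4591 genes did. This mouse was set aside for its high levels of these same genes, so larger falls without it are no separate support. Their changes then ran from -1.93 ± 0.25 in Mobp to -0.87 ± 0.16 in Mbp among the 8, and Mag was at -0.75 ± 0.21 with an adjusted p of 0.0755. Leaving out any other single mouse, WT or HttQ175/+, left 0 of 9 past the threshold, with an adjusted p for Mal between 0.0519 and 0.162.

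Nucleus by nucleus, the same difference was seen as fewer nuclei with many of the members. With each nucleus thinned to 1000 UMIs, the median nucleus held 12, 9.5 and 14.5 UMIs of the 9 members in the WT mice and 4, 5, 13 and 4 in the HttQ175/+ mice, in replicate order. At least 5 of the 9 genes were detected in 62.9%, 62.5% and 63.0% of the nuclei of the WT mice, and in 20.5%, 21.3%, 45.6% and 23.9% of those of the HttQ175/+ mice. All 4 HttQ175/+ mice were below all WT mice in this share. Mobp was detected in 50.0% to 68.6% of the nuclei of WT mice and in 16.7% to 45.6% of those of HttQ175/+ mice at this depth, and Mbp in 87.0% to 88.6% and 71.6% to 91.2%.

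Within neuron-poor nuclei the gap between genotypes was smaller and HttQ175/+ replicate 3 no longer stood apart. The 9 members summed to 24759, 24794 and 24058 CPM in the WT mice (15, 14 and 29 nuclei) and to 17082, 12153, 17751 and 17091 CPM in the HttQ175/+ mice (17, 18, 35 and 20 nuclei). The WT mean was 1.53 times the HttQ175/+ mean here, and replicate 2 was the low mouse. None of the 148 nuclei lacked UMIs of the members. On the CPM scale 7 of the 9 members had all HttQ175/+ mice below all WT mice, and the share of all genes was not computed on that scale. After scaling of the libraries 6 members had this order, where 11.5% of the 382 genes tested did.

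Mobp in neuron-poor nuclei was at 2565, 1909 and 2684 CPM in WT and at 1219, 445, 1360.2 and 996 CPM in HttQ175/+. The groups did not overlap and the change was -1.26 ± 0.38 with an adjusted p of 0.0888. Cldn11 was at 2263, 1963 and 1764 CPM in WT and at 956, 283, 939.9 and 851 CPM in HttQ175/+, a change of -1.42 ± 0.38 with an adjusted p of 0.0865. Mal was at 2456, 3373 and 3686 CPM in WT and at 1386, 1404, 1201 and 1962 CPM in HttQ175/+, a change of -1.05 ± 0.29 with an adjusted p of 0.0865. These 3 genes thus had changes of -1.05 to -1.42 in neuron-poor nuclei and of -1.47 to -1.57 over all nuclei. The 2 fits are not on equal terms: 66.2 against 15.1 CPM were added before the log, and library scaling factors ran 0.835 to 1.135 against 0.940 to 1.035. Mean CPM in WT and HttQ175/+ was 1997 and 757 for Cldn11 here, and 1110 and 426 over all nuclei. For Mobp it was 2386 and 1005, and 1485 and 549. For Mal it was 3172 and 1488, and 1978 and 706.

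Mag and Mbp differed from them in these nuclei. Mag was at 2851, 2289 and 2729 CPM in WT and at 2850.1, 1682, 2939 and 2792 CPM in HttQ175/+, so that 3 of the 4 HttQ175/+ mice lay above the middle WT mouse. Its change was -0.04 ± 0.30, with a 95% interval of -0.67 to 0.59. Mbp was at 8977, 8617 and 7593 CPM in WT and at 7099, 5495, 7098 and 6748 CPM in HttQ175/+, a change of -0.33 ± 0.23 with a 95% interval of -0.82 to 0.16. The CPM of Mbp did not overlap between genotypes, while the scaled values did. Among the other members the changes were -1.05 in Ugt8a, -0.97 in Aspa, -0.61 in Cnp and -0.47 in Mog, with adjusted p of 0.142 to 0.443.

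With 14 to 35 nuclei and 22064 to 56774 UMIs per mouse, 382 genes could be tested in neuron-poor nuclei, and 0 of the 9 members passed with limma, where 0.262% of all genes did. At an unadjusted p under 0.05 there were 6 members, and 16.0% of all genes tested. The median change of the 9 was -0.97 against -0.16 for all genes tested. Without TMM scaling of the libraries 3 members passed, where 4.19% of all genes did. With a limit of 5 neuronal UMIs per 1000 it was 1 member and 1.66% of 241 genes, and without HttQ175/+ replicate 3 it was 2 members and 1.92% of 312 genes.

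**Figure D3:**
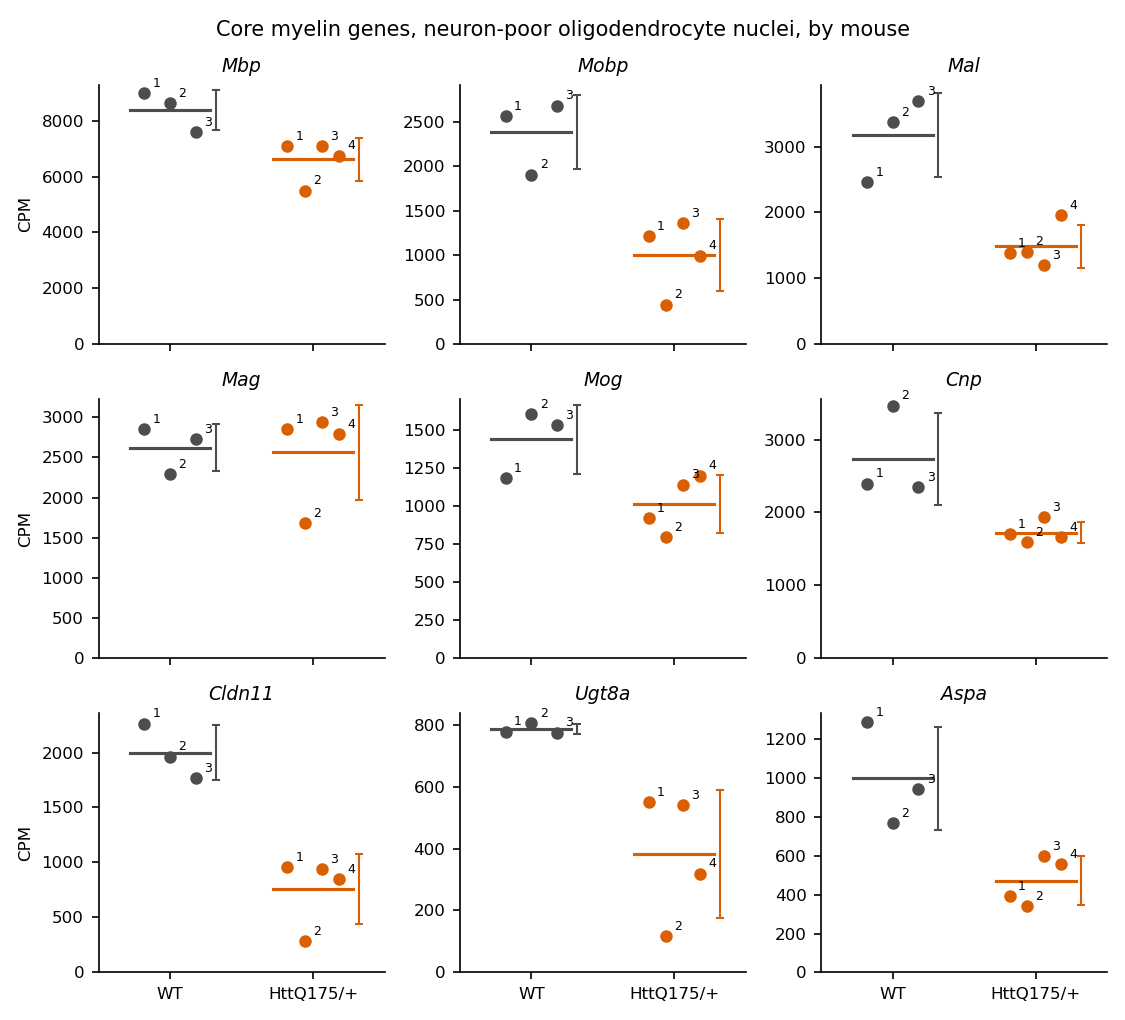
CPM of each core myelin gene over neuron-poor oligodendrocyte nuclei, those of at most 10 neuronal UMIs per 1000, 1 point per mouse numbered by replicate, with the mean as a line and the SD as a bar beside it (WT in grey, n = 3; HttQ175/+ in orange, n = 4). On this unscaled CPM the genotypes do not overlap in 7 of 9 genes, and the share of all genes was not computed on that scale. After scaling of the libraries it is 6 of 9, where 11.5% of 382 genes tested have this order. In Mag 3 of the 4 HttQ175/+ mice lie at 2792 to 2939 CPM beside 2289 to 2851 CPM in WT.

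In neuron-rich nuclei the members were lower than in neuron-poor nuclei in every mouse. They summed to 6400.3, 6967 and 6211 CPM in WT (20, 18 and 25 nuclei) and to 4184, 4643, 5733 and 4408 CPM in HttQ175/+ (56, 90, 22 and 89 nuclei), with all HttQ175/+ mice below all WT mice. Mobp had the lowest change, -1.06 ± 0.28, and Mal followed with -0.92 ± 0.26. The other 7 members lay between -0.69 and -0.12, and the median of the 9 was -0.55 against 0.08 for all 1590 genes tested. None of the 9 passed with limma, where 0.126% of all genes did, and 4 had an unadjusted p under 0.05, as had 13.9% of all genes.

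A split by depth gave a related view, since neuron-rich nuclei were the deeper ones. In oligodendrocyte nuclei of at least 2000 UMIs the 9 members summed to 6819, 5670 and 10136 CPM in WT and to 4999.6, 4411, 9013 and 5347 CPM in HttQ175/+, and the genotypes overlapped. None of the 9 passed the test there, where 0.189% of 2118 genes did. In nuclei under 2000 UMIs they summed to 23114, 22792 and 21050 CPM in WT and to 14396, 7271, 17070 and 8499 CPM in HttQ175/+, with no overlap. Mal and Cldn11 fell there, by 1.42 ± 0.29 and 1.55 ± 0.32 (log2, SE) with an adjusted p of 0.0251 each, where 2.21% of 588 genes passed.

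**Figure D4:**
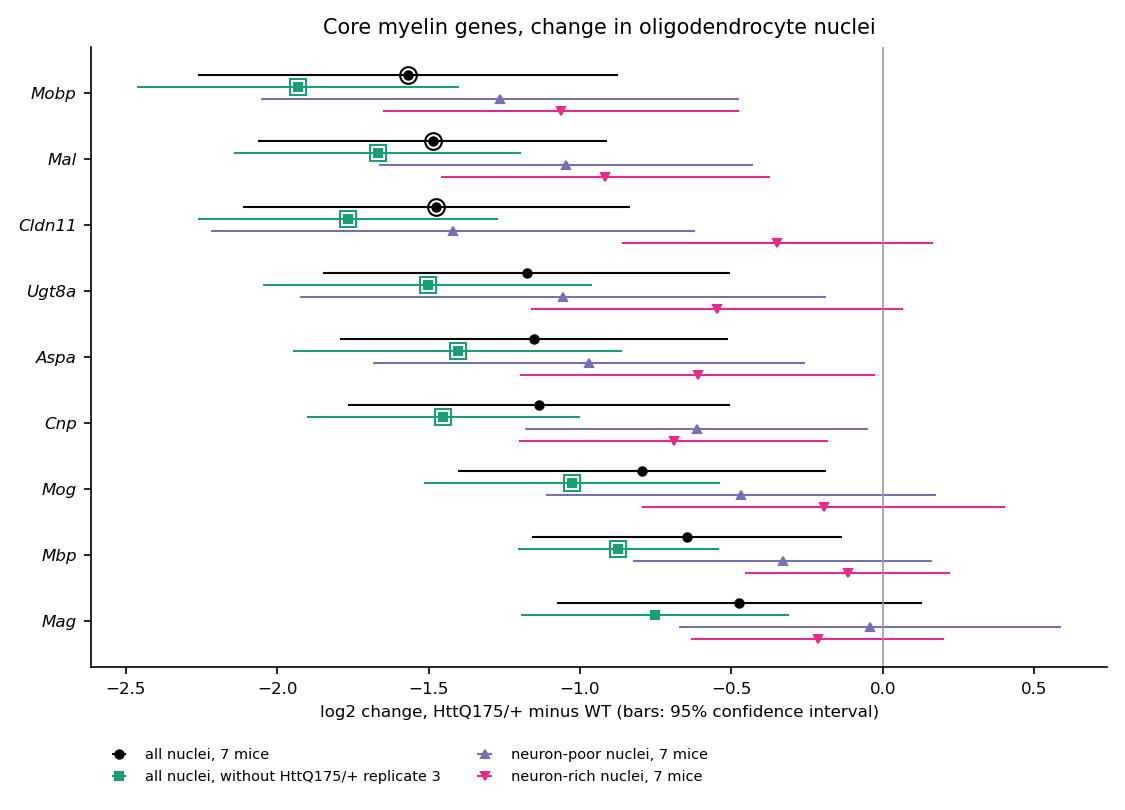
Fitted log2 change of each core myelin gene, HttQ175/+ minus WT, with its 95% confidence interval, for all oligodendrocyte nuclei, all nuclei without HttQ175/+ replicate 3, neuron-poor nuclei and neuron-rich nuclei; a large open outline marks an adjusted p under 0.05. Mobp, Mal and Cldn11 are marked over all nuclei, all genes but Mag without replicate 3, and none within either kind of nucleus, where Mobp is at -1.26 and -1.06.

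Genes that work beside the core members moved in the same direction in part. Of 10 other genes of compact myelin and its proteolipids, 2 fell over all oligodendrocyte nuclei, where 0.548% of all genes did, and the median change was -0.91. Without HttQ175/+ replicate 3, 6 of the 10 fell, where 1.98% of all genes did. Cryab, a small heat shock protein of oligodendrocytes, changed by -1.24 ± 0.29 with an adjusted p of 0.0473. Of 12 tested genes that mark mature oligodendrocytes, 3 fell and the median was -1.01, and without replicate 3 it was 8 of 13. The 3 were Car2, a carbonic anhydrase (-1.46 ± 0.27, adjusted p = 0.0129), Trf, the iron carrier transferrin (-1.37 ± 0.27, adjusted p = 0.0167), and Ptgds, the prostaglandin D2 synthase (-1.14 ± 0.27, adjusted p = 0.0485).

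In the lists further from the sheath the calls turned on HttQ175/+ replicate 3. With all 7 mice, none of 14 tested genes of the paranode and axon contact passed (median -0.31), none of 6 genes of junctions between oligodendrocytes (median -0.58), and none of 9 genes of myelin lipid and N-acetylaspartate metabolism (median -0.49). The same held for 10 transcription factors of myelination (median -0.37) and 6 genes of newly formed oligodendrocytes (median -0.0043). At an unadjusted p under 0.05 these 5 lists had 3, 2, 1, 3 and 1 genes, and 13.4% of all genes had one. Without replicate 3, 6 of their genes fell, where 1.98% of all 4591 genes tested did. From the paranode list these were Sept7 (-1.83 ± 0.31), Ermn (-1.30 ± 0.27) and Bin1 (-1.16 ± 0.26). The others were Fa2h (-1.19 ± 0.27), a fatty acid hydroxylase of myelin lipids, and the regulators Qk (-1.12 ± 0.22) and Sox10 (-1.30 ± 0.31). These 6 were named after their values were seen. In neuron-poor nuclei no gene of any of the 7 lists passed, and the medians were -0.65 over 10 compact myelin genes, -0.59 over 11 genes of mature oligodendrocytes, -0.09 over 11 of the paranode and -0.36 over 7 transcription factors.

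Polydendrocytes held less of the core myelin genes than oligodendrocytes did in every mouse. Their sum was 239, 296 and 869.6 CPM in WT and 656, 1789, 377 and 989 CPM in HttQ175/+, from 160 UMIs in all 78 nuclei, 60 of them from HttQ175/+ replicate 2. The genotypes overlapped, and with 8 to 17 nuclei per mouse the type was not tested. Mbp gave 87 of the 160 UMIs, or 54.4% (95% exact binomial interval 46.3% to 62.3%), against 39.1% (38.1% to 40.1%) in oligodendrocytes. That share was also 56.1% (49.4% to 62.7%) in iSPNs, 50.5% (46.3% to 54.7%) in astrocytes and 60.8% (49.1% to 71.6%) in Pnoc/Pvalb interneurons. Ugt8a gave 9.38% (5.34% to 15.0%), against 2.97% (2.63% to 3.34%) in oligodendrocytes and 9.42% (5.11% to 15.6%) in Sst interneurons. Neither share was particular to polydendrocytes. The intervals of these shares cover counting error only and leave out the spread between nuclei and mice. The progenitor markers were present at 5287 to 12277 CPM in these nuclei and at 42.3 to 373 CPM in oligodendrocytes. Mbp was detected in 12 of 78 polydendrocyte nuclei at 1000 UMIs (15.4%). It was detected in 16.0% of astrocyte, 12.5% of endothelial and 2.16% of dSPN nuclei, so polydendrocytes were not above astrocytes. Mobp was detected in 3 of 78 (3.85%).

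Outside the lineage, UMIs of the core myelin genes were few. They are called carried over here because these types are not known to make myelin, but their source was not tested. The mix of members was not the same as in oligodendrocytes. In dSPNs Mag gave 3.16% of these UMIs against 13.8%, Mobp 17.0% against 8.14%, and Mal 9.20% against 10.9%. Oligodendrocyte nuclei held 67.8% to 90.8% of all UMIs of the 9 genes in a mouse, and types other than the lineage 8.85% to 28.8%. The low shares came from HttQ175/+ replicates 1 and 2, at 72.8% and 67.8%, and the other 5 mice had 86.9% or more. In dSPNs the sum was 64.8, 10.3 and 133 CPM in WT and 97.1, 135, 42.6 and 62.5 CPM in HttQ175/+, which is 0.070% to 2.29% of the oligodendrocyte level of the same mouse. In iSPNs, the spiny projection neurons of the indirect pathway, it was 131, 20.9 and 128 CPM in WT and 125, 202, 47.2 and 27.5 CPM in HttQ175/+. The genotypes overlapped in both.

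Only Mbp had enough UMIs for a test in these neurons. It was at 28.7, 0 and 71.4 CPM in WT and at 53.0, 57.1, 10.1 and 37.1 CPM in HttQ175/+ dSPNs, where WT replicate 2 had 0 UMIs. The change was 0.75 ± 0.78 with an adjusted p of 0.681, where 3.93% of genes in dSPNs passed, and it was -0.53 without WT replicate 2. In iSPNs the change of Mbp was 0.21 ± 0.75 with an adjusted p of 0.94, where 2.29% of genes passed. The difference between the change in oligodendrocytes and that in dSPNs, fitted within mice, was -1.39 ± 0.93 for Mbp with an adjusted p of 0.551. That test passed for 0% of 3446 genes, and 396 of them had an unadjusted p under 0.05. Among the genes of the 7 lists, 5 passed in dSPNs. Cers2, a ceramide synthase, rose by 2.16 ± 0.32, and Frmd4a by 0.77 ± 0.19. Nfasc, a cell adhesion protein of axons and paranodes, fell by 1.28 ± 0.19, Grm3, a glutamate receptor, by 1.36 ± 0.29, and Gpm6b, a proteolipid, by 0.87 ± 0.14 (log2, SE). Their adjusted p ran from 0.00157 to 0.0366. No member could be tested in Sst interneurons, where the sum was 91.7 to 488 CPM.

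Astrocytes held more of the members than dSPNs and iSPNs did in every mouse. Their sum was 519, 705 and 472 CPM in WT and 1650.4, 1163, 702 and 537 CPM in HttQ175/+, or 2.99% to 23.0% of the oligodendrocyte level of the same mouse. HttQ175/+ replicates 1 and 2 were high and the other 5 mice lay between 472 and 705 CPM. Astrocyte nuclei held 5.61, 3.25 and 6.78 neuronal UMIs per 1000 in WT and 10.8, 21.6, 7.64 and 16.7 in HttQ175/+. Replicate 4 was thus high in neuronal RNA and not in the members, and the part of neuronal RNA in the members' level was not tested. Mbp changed by 0.65 ± 0.38 (adjusted p = 0.452) and Mobp by 0.12 ± 0.48 (adjusted p = 0.94), where 0% of 1873 genes passed and 250 had an unadjusted p under 0.05. Among the 82 microglial nuclei, the 6 of HttQ175/+ replicate 3 gave 4249 CPM from 34 UMIs, and the other mice 0 to 1143 CPM.

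**Figure D5:**
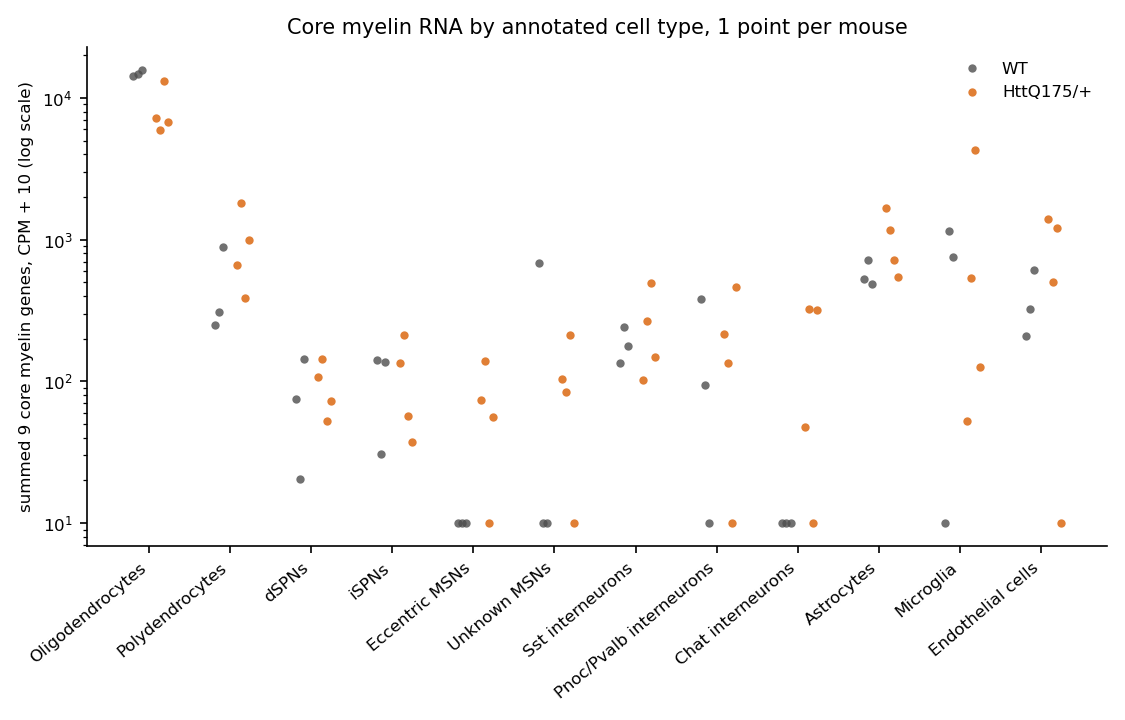
Summed CPM of the 9 core myelin genes in each annotated cell type, 1 point per mouse (WT in grey, HttQ175/+ in orange), on a log axis with 10 CPM added so that a value of 0 is drawn at 10. Oligodendrocytes lie at 5894 to 15795 CPM, dSPNs at 10.3 to 135 CPM, and astrocytes at 472 to 1650.4 CPM.

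With each mouse weighted equally, the summed level was 11109 ± 4302 CPM in oligodendrocytes (mean ± SD, n = 7 mice). Next came microglia with 974 ± 1503, of which HttQ175/+ replicate 3 gave the highest value and whose median mouse had 526, then astrocytes with 821 ± 433, polydendrocytes with 745 ± 542 and endothelial cells with 601 ± 519. The neuronal types followed, with 214 ± 134 CPM in Sst interneurons, 177 ± 177 in Pnoc/Pvalb interneurons, 149.9 ± 245 in Unknown MSNs, 97.3 ± 67.1 in iSPNs, 93.9 ± 148 in Chat interneurons, 77.9 ± 46.4 in dSPNs and 34.2 ± 49.5 in Eccentric MSNs. Only oligodendrocytes lay apart from the next type, and the ranges over mice of all other neighbours in this order overlapped. Pooled over all nuclei the order of the other non-neuronal types differed. It was 988 CPM in polydendrocytes (95% exact Poisson interval 841 to 1154), 914 in astrocytes (839.9 to 992), 781 in endothelial cells (669 to 907) and 514 in microglia (416 to 628). These intervals cover counting error only.

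Among the 10 genes, of 8626 others, whose profile over the 12 annotated types was most like the mean of the members were Ptgds (Pearson r = 0.974), Trf (0.968), Efcab14 (0.968), Cyp27a1 (0.967), Qdpr (0.963), Hapln2 (0.962), Nkx6-2 (0.962), Tmem88b (0.955) and Kctd13 (0.951). The correlation is over 12 type means that share libraries and is a description. Members themselves correlated with the mean of the other 8 at 0.844 (Ugt8a) to 0.978 (Mog). Of the 9 genes named, Ptgds and Trf fell in HttQ175/+ oligodendrocyte nuclei. The other 7 did not pass, with changes of -1.05 in Qdpr and Tmem88b, -0.97 in Hapln2, -0.92 in Kctd13, -0.70 in Nkx6-2, -0.26 in Efcab14 and -0.24 in Cyp27a1.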

How the data were processed

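Striatal nuclei were separated on iodixanol and sequenced with Chromium 3′ version 3 chemistry, per the labels' protocols. Cell Ranger 3.0.2, Seurat and mm10 are named in the submitters' processing notes. The sources used here do not give the filters on nuclei, the way types were annotated or the use of strand. Per mouse, the authors deposited natural log values, ln of 1 plus UMIs per 10000 in 1 table. Other columns, deposited in a further table, name the library, genotype and cell type of each nucleus, and the genotypes matched the labels in 4524 of 4524 nuclei. Whole UMIs were recovered from the step worth 1 UMI in each nucleus, and 100% of 5824756 values above 0 came out whole within 0.02. Deposited values smoothed over nuclei were left out because they share information between nuclei.

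Nuclei held 1128 to 5632 UMIs. Linear values of the nuclei of a type were averaged within each mouse as CPM, then TMM factors were applied and the log2 taken after adding 2 UMIs' worth of CPM at the depth of the median mouse (15.1 CPM in oligodendrocytes, 66.2 in neuron-poor ones). This pseudocount shrinks the changes of low genes. A gene was tested if it had 15 or more UMIs over the mice, and 10 or more, rescaled to the median depth, in 3 mice. limma-trend (limma 3.58.1, R 4.3.3) gave two-sided p-values, Benjamini-Hochberg adjusted over every gene tested in the type, with a threshold of 0.05; the procedure was tested on simulated data. CPM are printed before TMM and fitted changes after it. Exact permutation tests and exact intervals came from scipy 1.17.1. Scrublet (scanpy 1.11.5) marked 53 nuclei (1.172%) as doublets, which stayed in the main comparisons.

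The members, lists and tests were chosen with earlier results of these data known. The neuronal gene list, its limit and the split by depth were chosen after seeing the data. So was the choice to show counts without HttQ175/+ replicate 3. From each list, up to 4 genes past the threshold in oligodendrocytes or dSPNs are named. Pattern neighbours are the 10 genes of highest correlation on log2(CPM + 20), among those of at least 20 CPM in oligodendrocytes. Each library is 1 mouse, so p-values rest on the spread between mice. Alternatives were other pseudocounts and filters, no TMM, summed UMIs, thinned nuclei, doublets left out, limma without trend, and each mouse left out. Protein sequences and sequence of Mbp were not used here. A further gene that the naming rule covers is not reported here.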

Additional observations from a re-analysis of the deposited data

Results flagged for a closer look

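HttQ175/+ replicate 3 lay far from the other 3 HttQ175/+ mice in 4 of 18 measures examined for 1 sample far from the rest of its group, of which chance flags about 1 in 20. The measures are not independent, since many rest on the same 9 genes in the same nuclei. The 4 flags are all of this mouse and do not count as 4 separate signs. Over all oligodendrocyte nuclei it had 5242 CPM of Mbp, 988 CPM of Mal and 1354 CPM of Cnp, and its median nucleus held 13 UMIs of the 9 members per 1000, each the highest of the 4. The gap to the next mouse took 0.847, 0.841, 0.840 and 0.889 of the range of the group, above Dixon's 95% critical value for 4 samples. Its share of neuron-rich nuclei was 38.6%, and in neuron-poor nuclei it had 7098 CPM of Mbp, 1201 CPM of Mal and 1931 CPM of Cnp, beside 5495 to 7099, 1386 to 1962 and 1590.2 to 1702.5 CPM in the other 3.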

How the results depend on the processing

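No paired analysis was possible because replicate numbers were given in accession order and pair no mice. The count of members past the threshold over all oligodendrocyte nuclei, 3 of 9, was 0 with a filter of at least 1 UMI, 1 with summed UMIs, 0 in nuclei thinned to 1000 UMIs, 0 with limma without trend, 0 in nuclei of at least 2000 UMIs, 0 in neuron-rich nuclei and 0 in neuron-poor nuclei, and 0 to 8 with 1 mouse left out. Under the other 6 alternatives it stayed within 1.5 times of 3. In neuron-poor nuclei the count of 0 was 3 without TMM scaling, 1 in thinned nuclei, 1 with a limit of 5 neuronal UMIs per 1000, and 0 to 2 with 1 mouse left out. Fewer nuclei and fewer genes are tested in each subset; otherwise the cause was not tested.

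All 9 members kept a change below 0 over all oligodendrocyte nuclei in the 20 alternatives, except Mag at 0.078 and Mog at 0.063 in nuclei of at least 2000 UMIs. In neuron-poor nuclei Mag was at 0.13 in thinned nuclei, 0.036 with a limit of 5, 0.14 without WT replicate 3 and 0.20 without HttQ175/+ replicate 2, within -0.22 to 0.20 with 1 mouse left out, and the other 8 stayed below 0 in all 18. Mbp in dSPNs was at -0.53 without WT replicate 2 and ran up to 1.66 with another mouse left out. Mbp in iSPNs was at -0.31 in thinned nuclei, -0.97 without WT replicate 2, -0.08 without HttQ175/+ replicate 1 and -0.18 without HttQ175/+ replicate 2, up to 0.88 without WT replicate 1. The difference in UMIs per oligodendrocyte nucleus, 40.05 higher in HttQ175/+, ran from -161.3 to 222.6 with 1 mouse left out and included -45.1 and -57.4. The share of neuron-rich nuclei was higher in HttQ175/+ by 16.8 percentage points and kept its direction in 9 alternatives. Over all genes of oligodendrocyte nuclei, 24 calls became 2 with the loose filter, 4 without trend, 14 with summed UMIs, 1 in thinned nuclei and 1 to 108 with 1 mouse left out. Over all genes of neuron-poor nuclei, 1 call became 16 without TMM scaling, 4 in thinned nuclei, with a limit of 5, with the loose filter or with a pseudocount worth 5 UMIs, 2 with a limit of 20 or without trend, and 0 to 6 with 1 mouse left out. The smallest mouse had 14 neuron-poor nuclei.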
